A study of Arabidopsis thaliana with 16 samples.

Results

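The genes described here had lower transcript levels in Arabidopsis roots after 4 h of auxin. Their mean change was under 1 on the log2 scale, in either direction, when protein synthesis was blocked without auxin. They were chosen by 2 changes measured in these same data, from 22746 probe sets on 16 arrays. The change with naphthaleneacetic acid (NAA, a synthetic auxin) in the absence of cycloheximide (CHX, an inhibitor of protein synthesis) had to be at most -1.5 on the log2 scale, and the change with CHX in the absence of NAA had to lie within 1 of 0. Both were averaged over arrays with and without dexamethasone (DEX). The rule was met by 116 probe sets, 0.51% of those tested. Of these, 60 have no gene in the annotation at hand, 4 match several genes and 52 match 1 gene. TBL21 and the 3 class III peroxidase loci AT3G01190, AT4G30170 and AT4G33420 were left out as members of families set aside by the rule, which leaves 48 named genes. The response regulator RR16, also set aside, did not reach the threshold (NAA change -1.44). The peroxidases were recognised from general knowledge of the loci, since the annotation lists only their locus tags.

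All 16 RNA samples came from roots of 5-day-old seedlings of the puchi-1 mutant that carry gPUCHI:GR, a fusion of the transcription factor PUCHI to the glucocorticoid receptor under PUCHI's own regulatory region. Seedlings without the transgene and with a functional PUCHI gene were not analysed here. Each of the 8 groups had 2 arrays: the mock with 0.1% DMSO, 2 µM DEX, 10 µM CHX, 1 µM NAA, and the 4 combinations DEX+CHX, NAA+DEX, NAA+CHX and NAA+DEX+CHX. The labels speak of independent sets of RNA and do not say whether they came from separate cultures, so p-values measure the spread between these samples only. Intensities were taken as log2(intensity + 16), on which a probe set without signal reads 4 and the changes of dim genes are understated. Arrays had medians of 7.58 to 7.68 on this scale, and replicates of a group correlated across probe sets at 0.983 to 0.989. The labelled tissue could be checked on few markers by name. Both measured root hair genes, EXPA7 and EXPA18, read 8.78 to 10.70 on every array. The endodermal receptor kinase GSO1 read 8.11 to 9.50, and the 1 measured green tissue marker of 13, Rubisco activase (RCA), read 8.34 to 9.52. No marker of non-hair epidermis, stele or root cap was measured by name.

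Auxin acts in plants mainly by joining TIR1/AFB receptors to Aux/IAA repressor proteins, which are then degraded, so that auxin response factors can act on their target genes. This first step needs no new protein. Lower transcript levels can follow directly or through proteins made in response to auxin, and CHX, which stops translation on cytosolic ribosomes, is used to ask which changes occur without such proteins. CHX leaves the ribosomes of chloroplasts at work. In roots, applied auxin slows cell elongation and starts the divisions that form lateral roots.

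The values that chose the genes are given first, as a description. Without CHX, the 48 named genes were 2.84-fold to 15.1-fold lower with NAA, with a median of 3.61-fold (log2 median -1.85). In all 48 the 4 arrays with NAA lay below the 4 arrays without, as the choice of the genes favours, and this held for 18.7% of all probe sets. An NAA change of at most -1.5 was found for 1.91% of all probe sets. The largest change was that of AT5G04120, of the phosphoglycerate mutase family, at -3.92 (SE 0.187). It was followed by the leucine-rich repeat receptor-like kinase AT5G24100 at -2.91 (SE 0.173) and by AT4G01140 at -2.65 (SE 0.204). With CHX alone, 31 of the 48 were lower and 17 higher, by -0.94 to 0.98. In 23 genes the 4 arrays of CHX and DEX+CHX lay below the 4 of mock and DEX, and in 13 above. This held for 7403 and 6169 of all 22746 probe sets. Next to the NAA threshold lay AT5G44020 (-1.51), AT3G08490 (-1.52) and AT4G35750 (-1.52) inside, and AT5G58784 (-1.49), TRM26 (-1.48) and ATPMEPCRD (-1.47) outside. Next to the CHX threshold lay AT1G64910 (0.98), AT4G01140 (0.96) and AT5G44770 (0.94) inside, and AT5G61570 (1.01), AT4G11290 (-1.03) and AT3G24750 (1.04) outside. After NAA, 21 of the 48 had a mean level under 6 and 8 a mean under 5, close to the value of 4 without signal.

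The comparison that the rule left free is NAA in the presence of CHX: the 4 arrays of NAA+CHX and NAA+DEX+CHX, which the rule did not use, against the 4 arrays of CHX and DEX+CHX. It asks which of these falls take place while protein synthesis is blocked. Of the 48 genes, 22 were lower (limma adjusted p under 0.05, n = 4 against 4) and 0 were higher, where 3.09% of all probe sets tested were called lower and 1.38% higher. The median change was -0.43, a 1.35-fold lower level, against a median of 0.000856 over all 22746 probe sets. In 43 of 48 the value was below 0, as it was in 11330 of all 22746 probe sets. The 4 arrays with NAA lay below the 4 without in 26 genes, where this held for 5.43% of all probe sets. At an unadjusted p under 0.05, 29 genes were lower and 0 higher, against 9.36% and 7.39% of all probe sets. The CHX arrays also entered the rule's limit on the CHX change, so the comparison is free of the rule only on its treated side. In whole roots, fewer cells of a type and less RNA per cell cannot be told apart. On the GAPDH control probe sets the 3' signal over the 5' signal, which reflects RNA integrity, was 0.951 to 0.984 on the CHX arrays and 1.04 to 1.27 on the NAA with CHX arrays, without overlap. Both measured root hair markers of 8 listed fell as well, EXPA7 by 0.60 and EXPA18 by 0.39, and their summed intensity was 1308 to 1611 on the CHX arrays and 909 to 1206 with NAA. The 1 measured endodermis marker of 9, GSO1, had a summed intensity of 531 to 645 and 663 to 709 (limma adjusted p 0.054). The part of RNA integrity and of these cell types in the result was not tested.

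**Figure D1:**
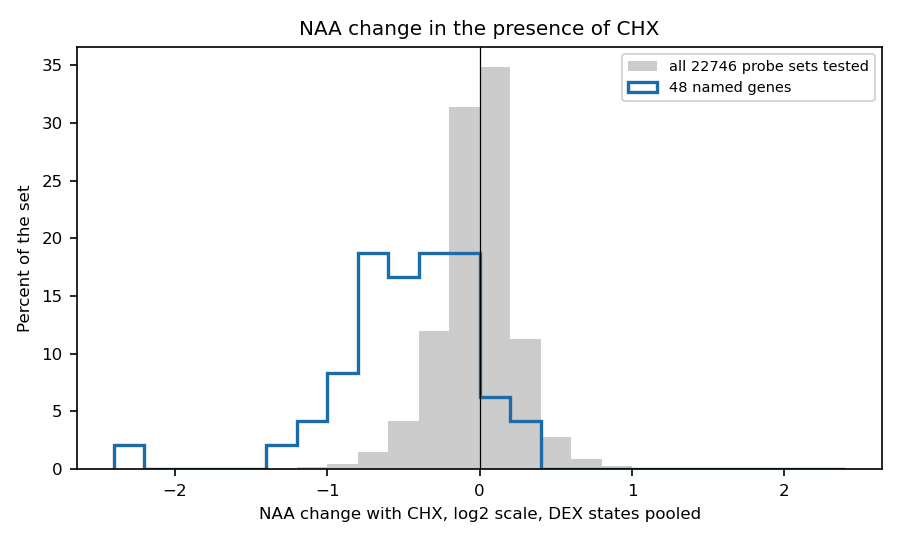
Change with NAA in the presence of CHX on the log2 scale (x axis), as the percent of each set in bins (y axis), for all 22746 probe sets tested (grey) and for the 48 named genes (blue outline). The median is -0.43 for the named genes and 0.000856 for all probe sets, and psbA stands alone at -2.22.

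In 47 of the 48 genes the NAA change was less negative with CHX than without, psbA being the exception. This is a description, since the rule fixed the change without CHX to be low and thereby pushes the difference upward. Of the 22 called genes, 4 were lower by at least 1 on the log2 scale: psbA, AT5G44770, AT5G04120 and AT1G76240. For comparison, 0.229% of all probe sets were called and at least 2-fold lower. The calls of 13 genes held in all 16 fits that left out 1 array, and those of 5 of them (psbA, AT1G76240, AT1G25230, AT5G44020 and AT1G78260) also held under the other alternatives apart from the 2-fold minimum, which psbA and AT1G76240 met and the other 3 did not. Across the 48 genes the changes without and with CHX, which share no array, had a Pearson's r of 0.39 and a Spearman's rho of 0.37. The genes are not independent and the rule cut the range of 1 of the axes.

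**Figure D2:**
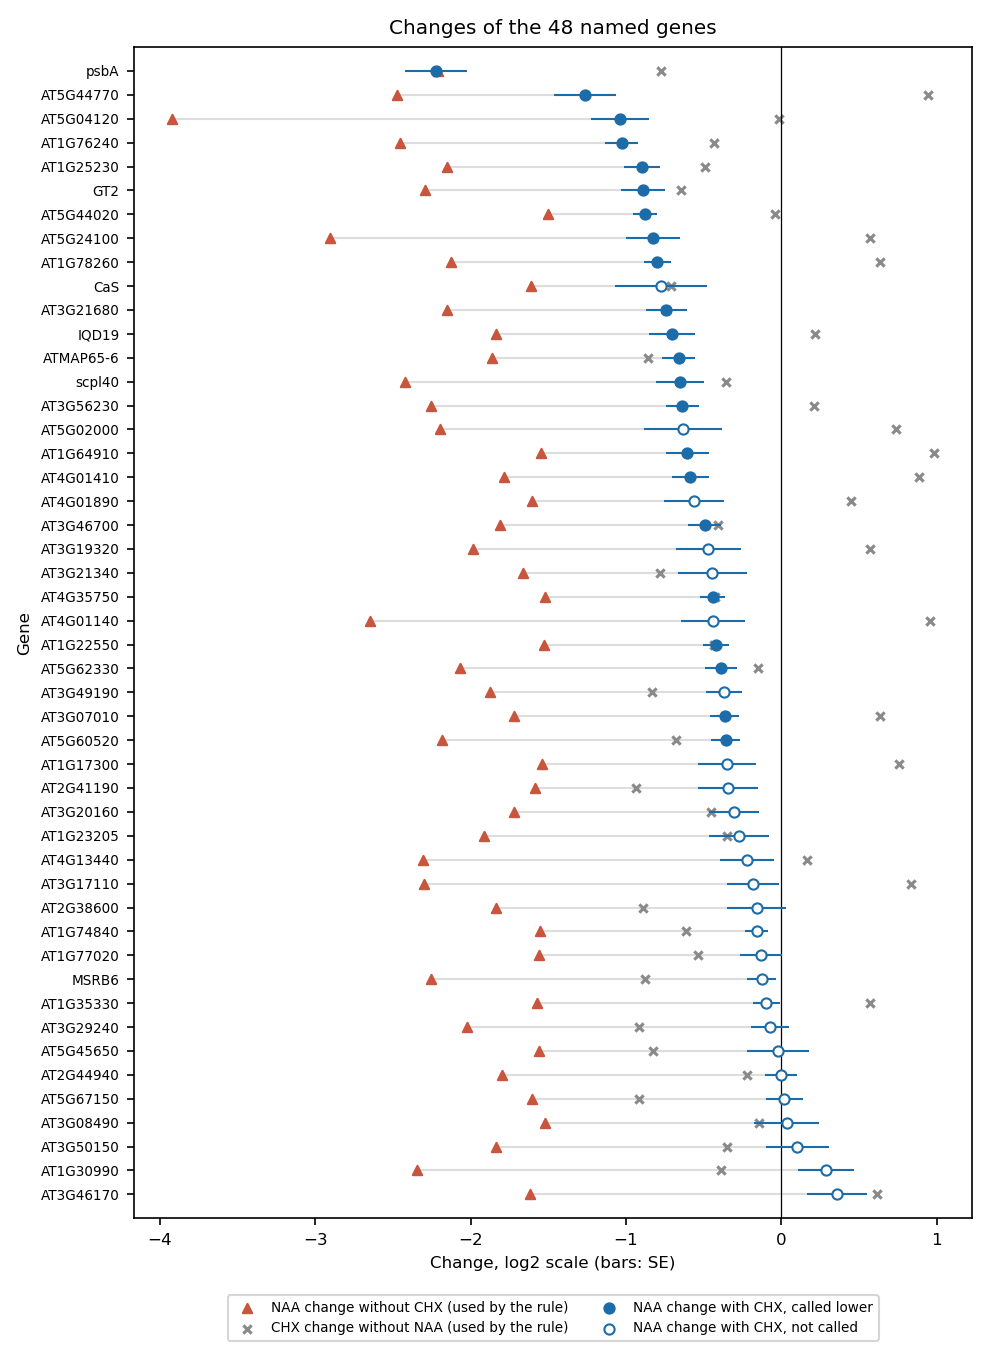
Changes of the 48 named genes on the log2 scale (x axis), ordered by the NAA change with CHX (circles with SE, filled where called lower by limma), beside the NAA change without CHX (triangles) and the CHX change without NAA (crosses), both used by the rule. The 22 filled circles lie between -2.22 and -0.36, and 5 of the open circles lie above 0.

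The plastid gene psbA, which encodes the D1 protein of photosystem II, gave the lowest change with NAA under CHX of all 22746 probe sets. On the log2 scale mock read 9.40 and 9.60 and DEX 9.30 and 9.0, against 6.95 and 7.22 with NAA and 7.22 and 7.08 with NAA+DEX. In the presence of CHX the levels were 8.08 and 8.69 for CHX, 9.10 and 8.33 for DEX+CHX, 6.83 and 5.92 for NAA+CHX, and 6.40 and 6.15 for NAA+DEX+CHX. The NAA arrays lay below the others both with and without CHX, and the lowest levels were those with NAA and CHX together. The change with NAA under CHX was -2.22 (SE 0.201, limma adjusted p 7.04e-06, n = 4 against 4), a 4.67-fold lower level, beside 4.62-fold without CHX. Plastid transcripts are poorly represented where labelling starts from poly(A) tails, as it does in this kind of kit. Of 69 plastid-encoded genes named on the array, psbA was the 1 with an NAA change of at most -1.5. A fall with NAA was not particular to psbA, since the change without CHX was below 0 in 64 of the 69. The median of the 69 was -0.48 without CHX and -0.43 with NAA under CHX. With NAA under CHX 24 of the 69 were lower and 0 higher, among them atpF at -1.43 and atpH at -1.32, both subunits of the plastid ATP synthase. Of all probe sets 3.09% were called lower and 1.38% higher. CaS, the nuclear gene of a calcium-sensing thylakoid protein, had a change of -0.77 (SE 0.297) that missed the threshold (limma adjusted p 0.181) and moved with 2 arrays. It passed without NAA+DEX+CHX replicate 1 (-1.14, limma adjusted p 0.0327) and was weaker without NAA+DEX+CHX replicate 2 (-0.41, not called). The green tissue marker RCA changed by -0.55 with NAA alone and by -0.12 with NAA under CHX (limma adjusted p 0.657). The summed intensity of the green tissue list, which is RCA alone, was 353 to 414 on the CHX arrays and 309 to 420 on the NAA with CHX arrays, so the groups overlapped.

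Of 3 phosphatase family genes and 1 of the phosphoglycerate mutase family, set together after their values were seen, 3 of 4 were called lower with NAA under CHX. Of all probe sets 3.09% were called lower. AT5G44020, of a family of HAD-type acid phosphatases, was among the brightest. Its level was 12.54 and 12.65 in the mock and 12.58 and 12.83 with DEX, against 11.10 and 11.09 with NAA and 11.23 and 11.16 with NAA+DEX. With CHX it read 12.55 and 12.68 and with DEX+CHX 12.58 and 12.62, against 11.66 and 11.73 with NAA+CHX and 11.58 and 11.95 with NAA+DEX+CHX. Its CHX change without NAA was -0.04, and the 4 arrays with both agents lay below the 4 with CHX and no NAA. With NAA under CHX it fell 1.84-fold, by 0.88 on the log2 scale with an SE of 0.0793 (limma adjusted p 6.98e-06, n = 4 against 4).

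The purple acid phosphatase family gene AT1G25230 had levels of 9.55 and 9.48 in the mock and 9.89 and 9.60 with DEX, and of 7.53, 7.49, 7.59 and 7.30 on the 4 arrays with NAA. CHX and DEX+CHX gave 8.91, 9.36, 9.07 and 9.21, against 8.33, 8.12, 8.11 and 8.40 once NAA was present as well. The groups did not overlap, and NAA under CHX lowered the gene by 0.90 on the log2 scale, a 1.86-fold difference (SE 0.114, limma adjusted p 0.000204, n = 4 against 4). AT5G04120, the most negative without CHX, read 8.63 to 9.58 on the 4 arrays of mock and DEX, against 4.32 and 4.71 with NAA and 5.17 and 6.03 with NAA+DEX. Under CHX it went from 8.57 and 8.59 (CHX) and 9.51 and 9.19 (DEX+CHX) to 7.90, 7.94, 8.04 and 7.83 with NAA. The fall under CHX was 2.05-fold (-1.04 on the log2 scale with an SE of 0.187, limma adjusted p 0.0039, n = 4 against 4), beside 15.1-fold without CHX. By DEX state the change under CHX was -0.66 without DEX (limma adjusted p 0.309) and -1.41 with DEX (0.0142). The difference between the states was not called (limma adjusted p 0.877). With only the arrays without DEX in the fit, the call ended (limma adjusted p 0.322). The last gene of this kind, the HAD-type acid phosphatase AT2G38600, had a value of -0.16 that did not pass (limma adjusted p 0.752), with a 95% interval of -0.56 to 0.24.

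**Figure D3:**
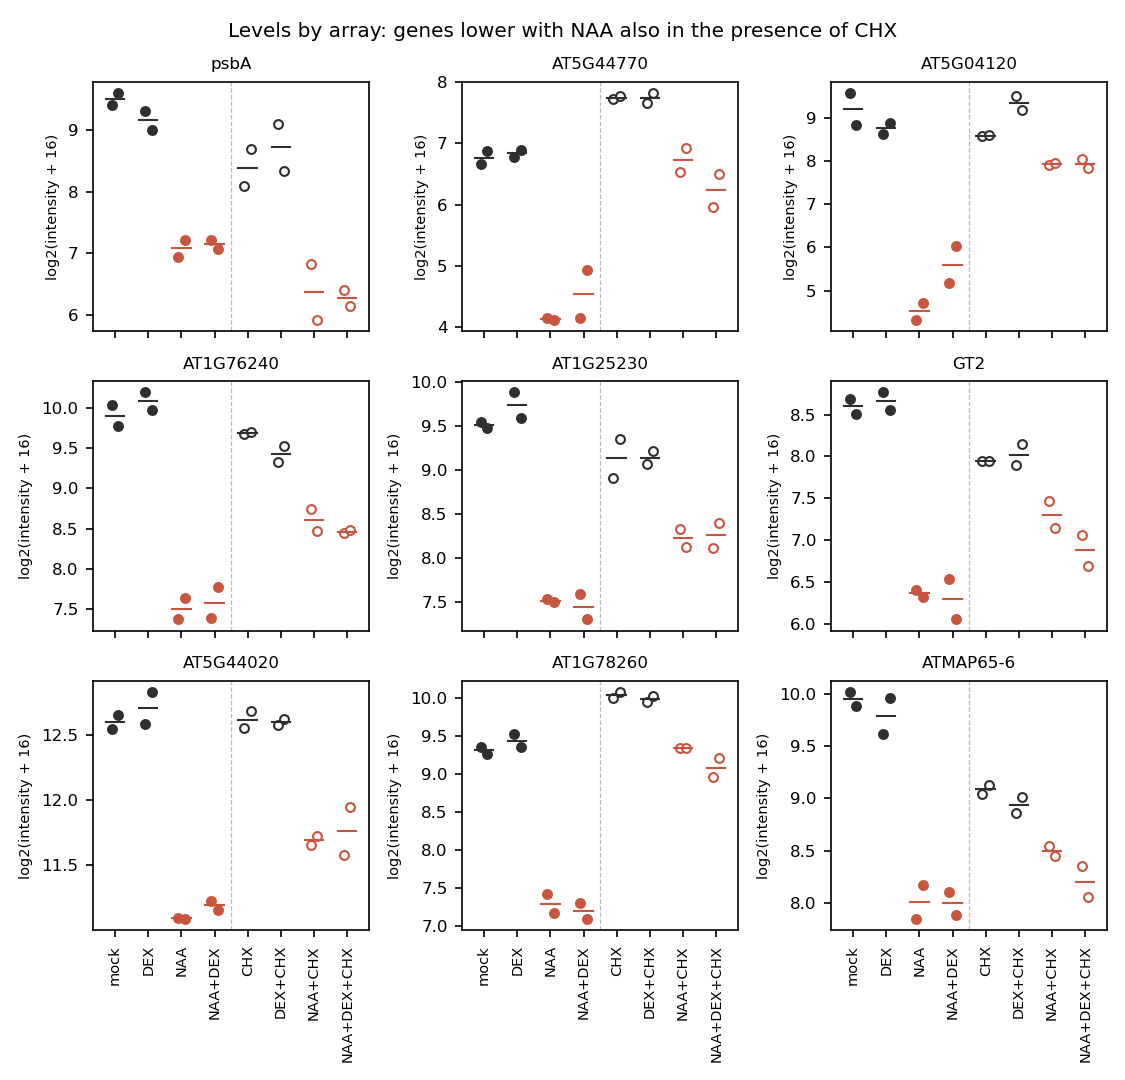
Levels of 9 genes called lower with NAA in the presence of CHX, as log2(intensity + 16) on each array (y axis) in the 8 groups (x axis). Points are arrays, short lines are group means, red marks NAA, and open points mark CHX. In each panel the 4 open red points lie below the 4 open dark points, and they lie above the 4 filled red points in 7 of the 9 panels, psbA (below them) and ATMAP65-6 (overlapping) being the others.

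Of 3 genes of DNA-binding families 1 was called lower, where 3.09% of all probe sets were. GT2, a trihelix factor that binds light-response elements, read 8.68, 8.51, 8.76 and 8.56 in mock and DEX and 6.41, 6.32, 6.54 and 6.06 with NAA. With CHX and DEX+CHX it read 7.94, 7.95, 7.90 and 8.14, and 7.47, 7.15, 7.07 and 6.69 with NAA in addition. The 4 lower arrays lay apart from the 4 others, and the change was -0.89 (SE 0.141, limma adjusted p 0.00148, n = 4 against 4). The AP2/ERF family gene AT2G44940 had other values. It read 9.20 to 9.54 without NAA and 7.42 to 7.72 with NAA, but under CHX its range was 8.87 to 9.35 without and 8.98 to 9.37 with NAA. The ranges overlapped almost wholly, and the change was -0.00387 with a 95% interval of -0.23 to 0.22 (limma adjusted p 0.992). The MYB-related gene AT1G74840 had a value of -0.16 with an interval from -0.31 to just under 0 (limma adjusted p 0.294).

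Among genes of signalling and the cytoskeleton, AT5G24100, the receptor-like kinase with the second most negative NAA change, read 7.90 to 8.34 without NAA and CHX and 4.87 to 5.77 with NAA. Under CHX the range was 8.44 to 8.97 without and 7.73 to 8.0 with NAA, a change of -0.83 (SE 0.173, limma adjusted p 0.0104, n = 4 against 4). The call ended without CHX replicate 2 (-0.75, limma adjusted p 0.0543) or DEX+CHX replicate 1 (-0.76, 0.0527). The other leucine-rich repeat kinase, AT3G21340, had a value of -0.44 that did not pass (limma adjusted p 0.338). IQD19, a calmodulin-binding IQ-domain protein, fell by 0.70 (SE 0.149, limma adjusted p 0.0117). It was no longer called without CHX replicate 1 (-0.64, 0.0518), DEX+CHX replicate 1 (-0.67, 0.0518) or NAA+DEX+CHX replicate 1 (-0.61, 0.0571). ATMAP65-6, of a family of proteins that bind and bundle microtubules, fell by 0.66 (SE 0.105, limma adjusted p 0.00147). Its CHX arrays read 8.86 to 9.13 and its NAA with CHX arrays 8.05 to 8.55, without overlap.

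Genes of proteolysis and the pectin wall gave mixed values. The serine carboxypeptidase-like gene scpl40 fell by 0.65 (SE 0.155, limma adjusted p 0.0234), from 7.80 to 8.16 on the CHX arrays to 7.14 to 7.71 with NAA. That call ended without CHX replicate 2 (-0.59, limma adjusted p 0.0944), DEX+CHX replicate 2 (-0.57, 0.109), NAA+CHX replicate 2 (-0.51, 0.113), NAA+DEX+CHX replicate 1 (-0.65, 0.0652) or replicate 2 (-0.65, 0.0603). The subtilase AT5G45650 had a value of -0.02 with a wide interval of -0.45 to 0.40. The list of proteases and peptidases by annotated name held 62 measured genes, of which scpl40 was the 1 called lower with NAA under CHX and 2 were called higher, CP1 at 0.67 and scpl28 at 0.58. Of all probe sets 3.09% were called lower and 1.38% higher. The pectate lyase family gene AT3G07010 fell by 0.37 (SE 0.0961, limma adjusted p 0.0401), but 12 of the 16 arrays each ended that call when left out, at -0.38 to -0.29 and adjusted p of 0.0523 to 0.181. These were all mock, DEX, NAA, CHX and NAA+DEX+CHX arrays, DEX+CHX replicate 2 and NAA+CHX replicate 2. The pectin lyase-like gene AT4G01890 and the pectin methylesterase inhibitor family gene AT1G23205 did not pass, at -0.56 and -0.27 (limma adjusted p 0.133 and 0.546). 

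Of 2 transporter and 2 UDP-glycosyltransferase family genes, 1 and 2 were called lower, where 3.09% of all probe sets were. The NPF family gene AT1G22550, of a family of nitrate and peptide transporters, fell by 0.42 (SE 0.0828, limma adjusted p 0.0071), and the amino acid transporter family gene AT2G41190 had a value of -0.34 that did not pass (limma adjusted p 0.399). The UDP-glycosyltransferase family genes AT1G64910 and AT3G46700, which carry no UGT symbol in the annotation and so stayed in, fell by 0.60 and 0.49 (limma adjusted p 0.0175 and 0.0146). The call of AT1G64910 ended without CHX replicate 1 (-0.54), either DEX+CHX array (-0.60 and -0.61), NAA+CHX replicate 2 (-0.59) or NAA+DEX+CHX replicate 1 (-0.61), at adjusted p of 0.0501 to 0.072. That of AT3G46700 ended without CHX replicate 2 (-0.48), DEX+CHX replicate 2 (-0.43), NAA+CHX replicate 2 (-0.36) or NAA+DEX+CHX replicate 1 (-0.45), at adjusted p of 0.0528 to 0.0782.

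Several genes known here by locus tag only were also called lower. AT1G76240 read 10.04, 9.77, 10.19 and 9.97 in mock and DEX and 7.37, 7.64, 7.38 and 7.78 with NAA. With CHX and DEX+CHX its levels were 9.68, 9.71, 9.33 and 9.53, and with NAA as well 8.74, 8.47, 8.44 and 8.48. No array overlapped, and the change was -1.03 (SE 0.106, limma adjusted p 3.12e-05, n = 4 against 4). AT5G44770 had higher values with CHX, with 6.66, 6.88, 6.78 and 6.90 in mock and DEX against 7.72, 7.78, 7.66 and 7.83 with CHX and DEX+CHX. With NAA it read 4.14, 4.12, 4.14 and 4.93 without CHX, near the value without signal, and 6.54, 6.93, 5.96 and 6.51 with CHX. The change under CHX was -1.26 (SE 0.198, limma adjusted p 0.00138), and the call ended with a pseudocount of 1 (-1.43, limma adjusted p 0.0759). That call also ended with only the arrays with DEX (-1.51, limma adjusted p 0.0594) or only those without DEX (-1.02, 0.116). AT1G78260 also had higher values with CHX, 9.95 to 10.08 against 9.27 to 9.52, and fell with NAA under CHX by 0.80 to 8.95 to 9.34 (SE 0.087, limma adjusted p 4.53e-05).

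Of the remaining called genes AT3G21680, AT3G56230 and AT4G35750 fell by 0.74, 0.64 and 0.44 with no loss of the call in any fit that left out 1 array. AT4G01410 fell by 0.59 and its call ended without DEX+CHX replicate 2 (-0.52, limma adjusted p 0.0549). AT5G60520 fell by 0.36 (limma adjusted p 0.0375), and its call ended without any of the 4 CHX and DEX+CHX arrays, either NAA+DEX+CHX array, NAA+CHX replicate 2 or DEX replicate 2 (-0.40 to -0.28, adjusted p 0.05 to 0.16). AT5G62330 fell by 0.39 (limma adjusted p 0.0447), and its call ended without either array of the mock, DEX, CHX or NAA+CHX, without DEX+CHX replicate 2 or without NAA+DEX+CHX replicate 2 (-0.44 to -0.31, adjusted p 0.0537 to 0.189).

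In 26 genes NAA gave no called change under CHX, and 21 of these had values below 0. For 19 of the 48 the 95% interval held 0 and excluded a fall of 1 on the log2 scale, as it did for 81.2% of all probe sets. MSRB6, a methionine sulfoxide reductase that repairs oxidised proteins, was one of the more tightly measured. It read 10.67, 10.79, 10.56 and 11.01 in mock and DEX and 8.62, 8.52, 8.47 and 8.40 with NAA, a 4.76-fold difference. Under CHX and DEX+CHX it read 9.70, 9.78, 10.02 and 10.02, and 9.66, 9.56, 10.06 and 9.73 with NAA in addition. The groups overlapped, and the change was -0.13 with a 95% interval of -0.32 to 0.07 (limma adjusted p 0.557). AT1G30990 went from 8.38, 8.62, 8.20 and 8.69 to 6.63, 5.62, 5.97 and 6.29 with NAA, a 5.08-fold difference. In the presence of CHX it read 8.04, 8.14, 7.96 and 8.19 without NAA and 8.63, 8.51, 8.30 and 8.04 with it. Here the change was 0.29 with an interval of -0.10 to 0.67 (limma adjusted p 0.478).

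Values close to 0 under CHX were also those of AT1G35330 (-0.10, interval -0.28 to 0.08), AT3G29240 (-0.07, interval -0.33 to 0.19), AT5G67150 (0.02, interval -0.24 to 0.27), AT3G08490 (0.03, interval -0.40 to 0.47) and AT3G50150 (0.10, interval -0.32 to 0.53). AT3G46170 had the highest value, 0.36 (interval -0.05 to 0.77, limma adjusted p 0.376). The transcribed pseudogene AT3G17110 and AT4G13440, 4.93-fold and 4.95-fold lower with NAA without CHX, had values of -0.18 and -0.22. AT4G01140, with the third most negative NAA change, had -0.44 with an interval of -0.87 to -0.01 and missed the threshold (limma adjusted p 0.289). AT5G02000, AT3G19320, AT3G49190, AT1G17300, AT3G20160 and AT1G77020 had values of -0.63 to -0.13 that did not pass. AT3G49190 passed without DEX+CHX replicate 1 (-0.47, limma adjusted p 0.0437).

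**Figure D4:**
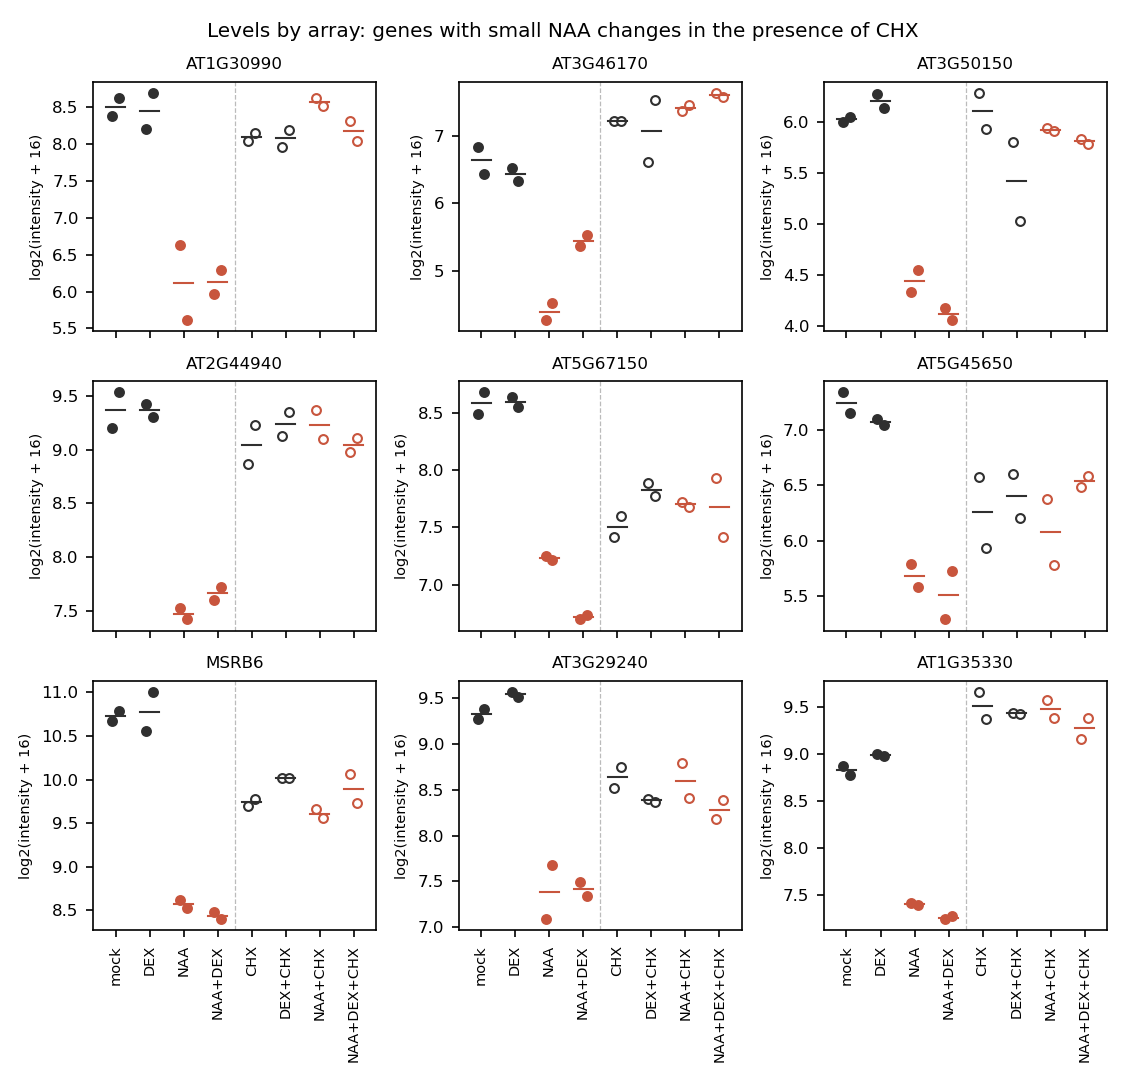
Levels of 9 genes with small NAA changes in the presence of CHX, as log2(intensity + 16) on each array (y axis) in the 8 groups (x axis). Points are arrays, short lines are group means, red marks NAA, and open points mark CHX. The filled red points lie below the filled dark points in each panel, as the choice of the genes favours, while the open red and open dark points overlap.

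With NAA and CHX together, 33 of the 48 genes ended within 1 on the log2 scale of their level in mock and DEX, 15 ended lower by at least 1 and 0 higher by at least 1. Of all 22746 probe sets, 15323 ended within 1, 3955 lower by at least 1 and 3468 higher by at least 1. The comparison uses the same mock and DEX arrays as the rule and is a description. The lowest of the 48 were psbA at -3.0, GT2 at -1.53 and ATMAP65-6 at -1.52.

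The change with NAA under CHX was also taken in each DEX state, which share no array. Without DEX 7 of the 48 genes were called lower, and with DEX 11 were, where 0.95% and 1.02% of all probe sets were called lower. In 5 genes both states were called: psbA, AT1G76240, AT1G25230, AT5G44020 and AT1G78260. Both states were called lower for 104 of all 22746 probe sets. Values were below 0 in both states in 40 genes, above 0 in both in 2, and of opposite sign in 6. Among all 22746 probe sets these counts were 6816, 6740 and 9190. All 22 genes called with the states pooled were below 0 in both. So were 702 of the 703 probe sets called lower in all, since the pooled change is the mean of the 2 states. AT2G41190 had the widest gap of the 48, at 0.09 without and -0.78 with DEX. The difference between the states was called in limma for 0 of the 48 (0.00879% of all probe sets), and AT2G41190 was the 1 gene with an unadjusted p under 0.05 (limma adjusted p 0.871), a threshold passed by 5.72% of all probe sets.

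**Figure D5:**
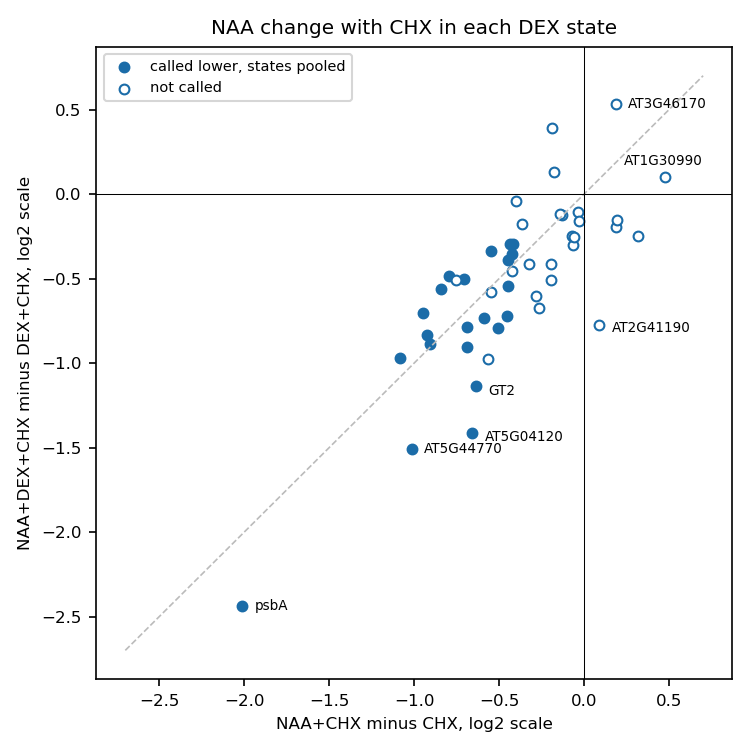
Change with NAA in the presence of CHX on the log2 scale for the 48 named genes, without DEX (x axis) and with DEX (y axis). Filled points were called lower with the states pooled, the dashed line marks equal values, and the 22 filled points all lie below 0 on both axes. The same holds for 702 of the 703 probe sets called lower in all.

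Activation of PUCHI-GR by DEX, which the rule averaged over, was tested on the same genes. In limma 0 of the 48 were called for the DEX average over the 4 backgrounds (8 arrays against 8), where 0.0791% of all probe sets were. At an unadjusted p under 0.05 there were 2, AT5G04120 at 0.35 (limma adjusted p 0.611) and AT3G49190 at 0.24 (0.536), where 6.95% of all probe sets passed that threshold. The values of all 48 ran from -0.25 to 0.35. None was called for DEX alone, with NAA, with CHX or with both, where 0.022%, 0.0352%, 0.0132% and 0.0308% of all probe sets were, and 0, 7, 3 and 3 had an unadjusted p under 0.05. That threshold was passed by 4.7%, 7.18%, 6.63% and 7.57% of all probe sets. The widest were in the presence of NAA, with AT5G04120 at 1.08 (limma adjusted p 0.214), AT3G46170 at 1.05 (0.268) and AT2G38600 at -1.05 (0.235). In these NAA arrays AT5G04120 read 4.32 and 4.71 without and 5.17 and 6.03 with DEX. The interactions of DEX with NAA and with CHX called 0 of 48 each, where 0% and 0.0044% of all probe sets were called. At an unadjusted p under 0.05 there were 4 and 5, against 5.86% and 7.57% of all probe sets.

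The other probe sets that met the rule are given as counts. Of the 60 unnamed ones 27 were lower with NAA under CHX and 0 higher, against 3.09% and 1.38% of all probe sets. The median of the 60 was -0.40. Of the 4 that match several genes 1 was lower, at -1.29, and it had the lowest NAA change of all 116, -4.85. Of the 4 genes set aside, 2 peroxidases were lower, AT3G01190 by 0.58 and AT4G30170 by 0.56, while AT4G33420 and TBL21 had values of 0.02 and 0.38 that did not pass.

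Auxin-lowered genes with other CHX responses are given side by side. Of 131 named genes with an NAA change of at most -1.5 and a CHX change of at most -1, 17 were called lower with NAA under CHX and 2 higher, with a median of -0.13. Of 24 with a CHX change of at least 1, 9 were called lower and 1 higher, with a median of -0.25. Those calls were made for 3.09% and 1.38% of all probe sets. The sets were split by the CHX arrays that also serve as controls here, so the counts were not tested against each other.

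The lists of genes by pathway or family held few of the 48, since 41 of them carry only a locus tag as symbol. The lists were matched by symbol or synonym, and so can hold genes of other families with similar symbols. Apart from the proteases, none of the lists of pectin modification (5 measured genes), wall glycoproteins (5), cellulose and COBRA (9), root hair (2), ion transporters (4), cytochromes P450 (26), signalling peptides (17), transcription factors (29), hormone genes (6), secondary metabolism (23) and sugar metabolism (1) held a member. The lists of aquaporins, lipid genes and receptor-like kinases held 0 measured genes by symbol or listed synonym. With NAA under CHX the signalling peptides had 3 genes called lower, the RALF-like peptide genes RALFL24, RALFL27 and RALFL33 at -0.54, -0.57 and -0.27, and 1 higher, CLE44 at 0.54. The wall glycoproteins had 1 lower, HRGP1 at -0.70, and cellulose and COBRA had 1 lower, CSLA03 at -0.45. These genes were named after their values were seen. Secondary metabolism had 1 lower, root hair genes the 2 lower ones named above, and transcription factors 0 lower and 4 higher. The pectin, ion transporter, cytochrome P450, hormone and sugar lists had 0 called in either direction. Over all probe sets 3.09% were called lower and 1.38% higher.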

How the data were processed

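Total RNA of roots was labelled with a 3' IVT kit and hybridised to Affymetrix arrays, 2 for each of 8 groups. The deposited intensity values are linear and were scaled by the authors with Affymetrix Expression Console 1.3, per the submitters' processing notes; no source used here names its algorithm, and a trimmed mean near 500 was found when checked. The 64 control probe sets were left out of 22810. Of the 22746 tested, 13513 name 1 gene, 503 several and 8730 none; symbols were updated through RefSeq's gene table. Values were taken as log2(intensity + 16) and fitted with limma 3.58.1 in R 4.3.3, with 1 mean per group over all 16 arrays, a variance trend and Benjamini-Hochberg adjustment over all probe sets, and genes were called at an adjusted p under 0.05. The 95% intervals come from this model, and the number of arrays limits the precision. The script was tested on simulated data.

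The members and lists were chosen with earlier results of these data known. The genes meant for naming were the 10 most negative with NAA, the 10 called with the most negative and up to 10 with the most positive NAA change under CHX, the 8 closest to 0 under CHX, any called for DEX and up to 4 of each list; the other members are named to account for all 48. The groups by role, the family names of loci without a symbol and the hand list of peroxidases rest on general knowledge and were made after the values were seen. The annotation at hand has no descriptions, so lists were matched by symbol or synonym. The promoter motif search was not run, and no sequences are printed.

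Same-numbered replicates were checked for pairing: their deviations correlated at -0.046 to 0.064 over 28 pairs of groups, so the numbers were not taken as pairs. Alternatives were quantile normalization, a filter on dim probe sets, pseudocounts of 1 and 64, no variance trend, a replicate block, only the arrays compared, each DEX state alone, a 2-fold minimum, each array left out and, added after seeing the data, the peroxidases kept.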

Additional observations from a re-analysis of the deposited data

How the results depend on the processing

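Over single genes, 1075 values under the alternatives kept their side of the threshold or moved by less than the spread between replicates, 95 lost the call, 4 gained it, 11 moved by more, and none changed direction while called. The 22 genes lower with NAA under CHX became 7 with only the arrays with DEX, 6 with only the arrays without DEX and 4 with a 2-fold minimum, as fewer samples or a stricter rule. Leaving out each array in turn gave 15 to 22 lower and 0 higher, a median of -0.46 to -0.37, 0 called for the DEX average, and 109 to 123 probe sets meeting the rule. The rule itself depends on the pseudocount: 296 probe sets met it with 1 and 60 with 64, against 116. A larger pseudocount shrinks the changes of dim probe sets by arithmetic. Its share in these counts was not tested. With the replicate number as a block 22 genes were lower and the median was -0.43, so the block changed no count. Quantile normalization gave 21 genes lower, the dim filter 21, no variance trend 17, only the arrays compared 18, and pseudocounts of 1 and 64 gave 18 and 24. The calls of AT5G24100, AT5G44770, AT5G62330 and AT3G07010 ended with a pseudocount of 1, and AT4G01890 and AT5G02000 were called with 64. With the peroxidases kept 24 were lower. Dim genes limit the precision: 15 of the 48 lay in the lowest 40% of probe sets by mean level.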
